A study of Saccharomyces cerevisiae with 27 samples.

Results

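Mother cells of budding yeast that had divided for 12 generations were compared with young control cells on 7 spotted arrays, the 7 of the 27 arrays in the series that carry the 12-generation title. Each array was read in 2 colours, so that every gene gave a log2 ratio of aged over young cells, and a positive value stands for a higher RNA level in the aged cells. The aged cells and their controls were wild-type Saccharomyces cerevisiae of the laboratory background W303, sorted with Miltenyi magnetic beads and held in log phase. No mutant, drug or transgene separated the channels. The label of the control channel gives its age as 1 generation, and the series text describes controls kept under matching conditions. The wording of the mating type can be read in more than one way and is not relied on here. Before dye coupling the RNA was amplified with T7 polymerase. The aged cells carried Cy5 on arrays 1, 2, 4 and 6 and Cy3 on arrays 3, 5 and 7. The rest of the series holds 7 arrays at 1 generation, which set young against young cells, 7 at 18-20 generations, and 6 at 8 generations, which entered only the fits over all 27 arrays.

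Replicative age is the number of daughters that a mother cell has produced. In budding yeast it is studied as a model of cell aging, because a mother divides asymmetrically, keeps much of her old material and stops after a limited number of divisions. On glucose, yeast ferments and represses the genes for acetate, ethanol, lactate and fatty acid use. These genes open when glucose runs low, while the genes for making ribosomes follow the growth rate and are turned down in most kinds of stress.

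The 7 arrays did not behave as 7 equally distant samples. Over genes, the log2 ratios of arrays 2 and 3 correlated with r = 0.802, those of arrays 4 and 5 with r = 0.92, and those of arrays 6 and 7 with r = 0.854. Each of these pairs joins an array with aged cells in Cy5 to one with aged cells in Cy3. The other 18 combinations ran from r = 0.228 to r = 0.768, and arrays 2 and 3 stood furthest apart, at 0.228 to 0.448 with the other arrays. The labels do not say whether the arrays of a pair share RNA or whether any of the arrays come from separate cultures, so a p-value here reflects how far these arrays scatter, and that scatter may be technical in part. Values are given for all 7 arrays, and the counts of list members also with each pair averaged, which leaves 4 values per gene (array 1 and the 3 pairs).

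**Figure D1:**
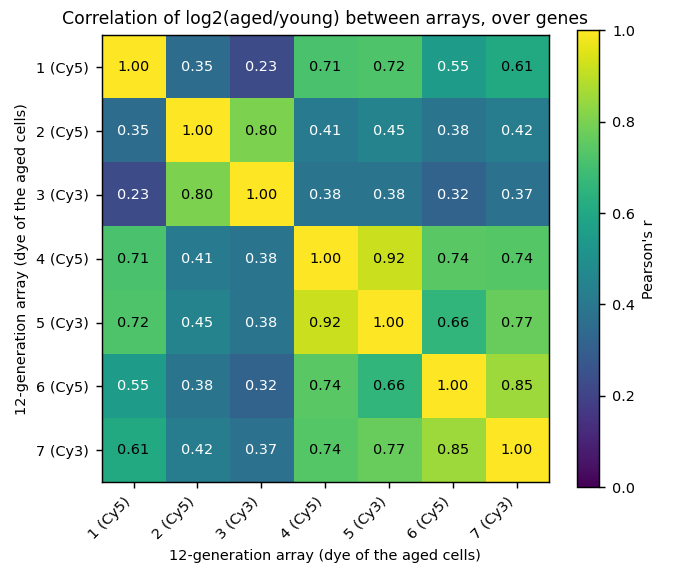
Pearson's r between the log2(aged/young) values of each combination of 12-generation arrays, over the genes measured on both, with the dye of the aged cells in brackets. The 3 bright blocks off the diagonal are the pairs 2 and 3, 4 and 5, and 6 and 7, and arrays 2 and 3 are the darkest against the others.

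Of 5954 genes tested with limma, 1991 (33.4%) differed from the young control at a Benjamini-Hochberg adjusted p under 0.05. They were 1034 that rose (17.4%) and 957 that fell (16.1%), and 312 rises and 272 falls were larger than 2-fold. One sign on every array that measured the gene was seen for 1685 genes (28.3%), and 1452 (24.4%) had this and passed the test. The median change over all genes was 0.02 on the log2 scale. With the pairs averaged, 919 genes passed (15.4%), 459 up (7.71%) and 460 down (7.73%), and 915 of them were among the 1991. Leaving out arrays 2 and 3 together, a choice made after seeing how far they lay from the others, gave 2071. Of the 1966 called genes with all 4 values, 1688 had a single sign over array 1 and the 3 pairs, while 149 had the opposite sign in the pair of arrays 2 and 3 alone. The genes were called on these same arrays, so such agreement follows in part from the call. The 15 largest rises and the 15 largest falls among genes with 1 sign on every array are described first, and then the gene lists.

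The rise of the acetate transporter gene ADY2 was the largest, but it was measured on 6 arrays. Its log2 ratios there ran from 1.36 to 5.39 with a median of 4.80, and array 3 alone lay below 4. The fitted change was 4.28 ± 0.41 (SE), a 19.4-fold higher level (adjusted p = 0.000517). The young channel was above background on 4 of the 6 arrays and the aged channel was saturated (over 50% of the spot's pixels) on 1, so the size of this fold is uncertain. ADH2 encodes the alcohol dehydrogenase that burns ethanol and is a classic glucose-repressed gene. Its ratios ran from 2.96 to 5.08 with a median of 3.52, so that no array came near 0, and the change was 3.67 ± 0.23 (adjusted p = 0.00015). With the pairs averaged the adjusted p of ADH2 was 0.00393. POT1, the thiolase of the last step of fatty acid oxidation in the peroxisome, lay between 1.73 and 5.46 (median 4.96) and rose 18.5-fold. POX1, the acyl-CoA oxidase of the first step, lay between 1.93 and 5.50 (median 3.44) and rose 10.3-fold. In both genes arrays 2 and 3 gave the lowest values and no array was below 0. The aged channel of POT1, SPG1, ADH2, SPG4, CPP3, MPC3, CIT2, HSP42 and HTB1 was saturated on 1 array each and that of TMA10 on 3. The young channel of PDC1, ARG1, MF(ALPHA)1, RPS4B and RPS31 was saturated on 1 array each. The sizes of these genes' ratios are less certain for it.

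SPG1 and SPG4, genes needed for survival at high temperature in stationary phase, changed by 4.08 ± 0.45 and 3.31 ± 0.29. SPG1 ranged from 2.06 to 5.45 and SPG4 from 1.87 to 4.49, again with arrays 2 and 3 at the low end and every array positive. The lactate dehydrogenase gene CYB2 (2.93 ± 0.41) and the lactate and pyruvate transporter gene JEN1 (2.61 ± 0.30) rose, as did MPC3 (2.81 ± 0.60), a subunit of the mitochondrial pyruvate carrier. MPC3 was the least even of these, with ratios from 0.01 to 5.31. The remaining names among the 15 largest rises were TMA10, CPP3, RGI2, CSR2, ALD3 and DDR2, with fitted changes from 2.62 to 3.34. ALD3, a stress-induced aldehyde dehydrogenase, and DDR2, a stress gene named for its response to DNA damage, were higher on all 7 arrays.

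CYB5 gave the steadiest of the large falls. This cytochrome b5 passes electrons to enzymes of sterol and fatty acid synthesis, and its log2 ratios ran only from -2.56 to -1.91 with a median of -2.27. Array 1 and the 3 pairs all lay close together, and the change was -2.19 ± 0.12 (adjusted p = 8.53e-05), a 4.57-fold lower level. ANB1, the form of the translation factor eIF5A made at low oxygen, was measured on 6 arrays and lay between -2.67 and -1.96 (median -2.47). It fell by 2.41 ± 0.14 on the log2 scale, with array 1 and the 3 pairs within the same narrow range. TIR1, a cell wall mannoprotein of anaerobic and cold-grown cells, lay between -3.11 and -1.62 and changed by -2.10 ± 0.18. DAN1, another anaerobic mannoprotein, changed by -1.90 ± 0.32, with its aged channel above background on only 3 arrays and its ratios spread from -3.16 to -0.23.

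RPS9A, a protein of the small ribosomal subunit, had the largest fall of all, -2.56 ± 0.24, with ratios from -3.16 to -1.39. IZH4 (-2.20 ± 0.22) and IZH1 (-1.86 ± 0.16), membrane proteins of zinc homeostasis, were lower on all 7 arrays. The permease genes FCY2 (-1.86 ± 0.18) and FCY22 (-1.89 ± 0.16), for purines and cytosine, gave almost the same value on every array. They are paralogs, and the probes may not tell them apart. MES1, the methionyl-tRNA synthetase, changed by -1.91 ± 0.27. AAH1, an adenine deaminase that is turned down as cells leave growth, changed by -1.91 ± 0.29, and ILV5, a branched-chain amino acid enzyme, by -1.87 ± 0.18. MCD4 of GPI anchor synthesis, the small nucleolar RNA-binding protein gene SNU13 and the membrane protein gene MRH1 complete the 15, between -1.97 and -1.83. MRH1 was close to 0 on array 1 (-0.16) and far below it on arrays 6 and 7.

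**Figure D2:**
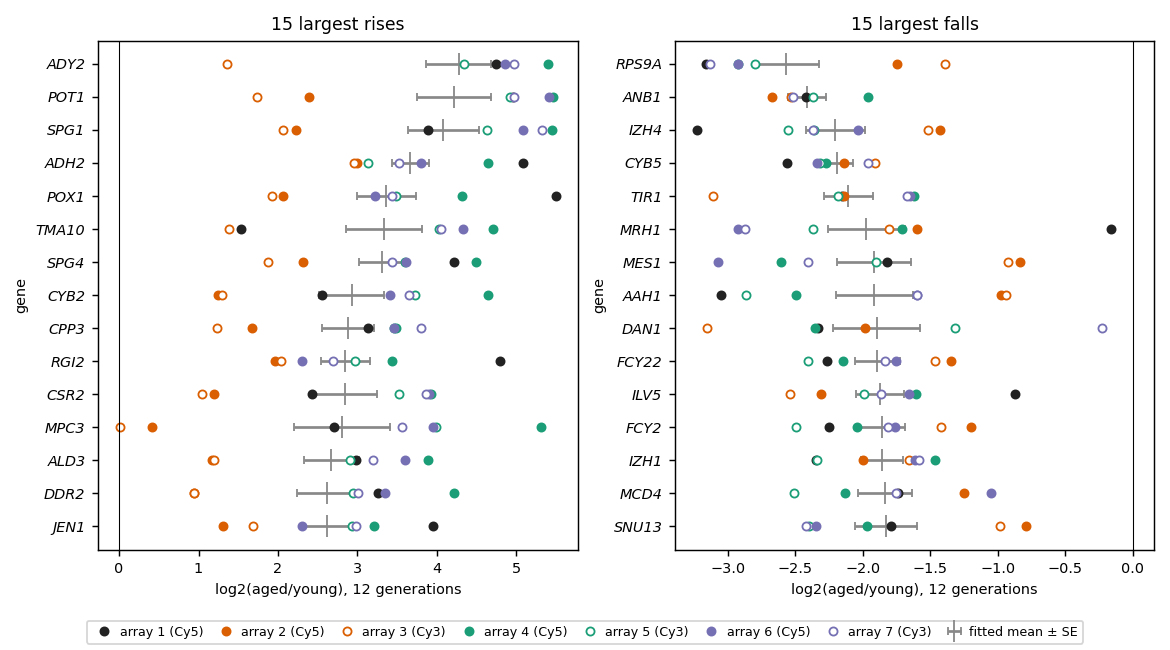
The log2(aged/young) of the 15 largest rises and 15 largest falls on each 12-generation array, filled where the aged cells carried Cy5 and open where they carried Cy3, with the fitted mean and its standard error in grey. Arrays 2 and 3 give the lowest value of most rises, while the points of CYB5 all lie between -2.56 and -1.91.

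The genes of the glyoxylate cycle and gluconeogenesis, which let a cell build sugar from acetate, had a median log2 change of 1.25 against 0.02 over all genes. Of 19 tested, 13 rose, none fell, and 11 of the 13 also passed with the pairs averaged. ACS1, the acetyl-CoA synthetase used without glucose, ran from 1.18 to 4.37 (median 2.55) and changed by 2.47 ± 0.33 (adjusted p = 0.00103). CIT2, the peroxisomal citrate synthase and the standard target of mitochondrial retrograde signalling, ran from 0.38 to 3.79 and changed by 2.31 ± 0.43. IDP3, which supplies NADPH in the peroxisome, changed by 2.41 ± 0.30. PCK1 and FBP1, the 2 committed enzymes of gluconeogenesis, rose by 1.25 and 1.00. SFC1, the mitochondrial succinate and fumarate carrier, was not above background in the young cells of any of its 5 arrays, and its level was at least 3.63-fold higher in the aged cells (adjusted p = 0.000947). For this bound, each dim value was set to the higher of its own signal and the lowest signal above background on that array.

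Among 19 genes of peroxisomes and fatty acid oxidation, 11 rose and 2 fell (median 1.02), and 10 and 1 of these passed with the pairs averaged. Besides POT1 and POX1, FOX2, the multifunctional enzyme of the middle steps, rose by 2.56 ± 0.36. The 2 that fell were the acyl-CoA synthetase gene FAA4 (-1.32) and the peroxisomal nucleotide carrier gene ANT1 (-0.64). Genes for the uptake and use of other carbon sources gave 13 rises and 2 falls among 23 (median 0.91), of which 9 and 2 passed with the pairs averaged. The fallers there were GIT1, a transporter of glycerophosphoinositol (-1.07), and the lactate dehydrogenase gene DLD3 (-0.70), also a retrograde target. The median of each of these lists was above 0 on all 7 arrays, from 0.19 to 2.46, and arrays 2 and 3 were the lowest in each.

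Of 15 genes of the tricarboxylic acid cycle 9 rose and none fell, with a median of 0.45, and 5 of them passed with the pairs averaged. CIT1, the mitochondrial citrate synthase, ran from 1.40 to 2.30 on 6 arrays and changed by 1.75 ± 0.15 (adjusted p = 0.000341). CIT3, the minor mitochondrial citrate synthase, changed by 2.34 ± 0.30, with 4.46 on array 1 and at most 2.73 elsewhere. Retrograde response genes gave 8 rises and 2 falls among 15 (median 0.82, and 6 and 1 with the pairs averaged), led by CIT2 and by PUT1, the proline oxidase (2.17 ± 0.35). Of these rises, CIT1, IDH1 and ACO1 are also counted in the tricarboxylic acid list. CIT2 is also counted among the glyoxylate genes and ATO3 among those of other carbon sources. The regulator genes RTG1, RTG2 and RTG3 did not pass. MKS1, a negative regulator of this response, is counted among the 8 rises (0.86 ± 0.15, adjusted p = 0.00448). DLD3 and the glutamine synthetase gene GLN1 (-0.57) were the 2 that fell. Glycolysis and fermentation gave 6 rises and 1 fall among 16, and 2 rises passed with the pairs averaged. The shares of rises over all genes were 17.4% and 7.71%. The hexokinase gene HXK1 changed by 1.59 ± 0.29, while the median of that list, 0.30, turned to -0.25 when arrays were only median-centred. PDC1, the main pyruvate decarboxylase, changed by 1.06 ± 0.21 over all arrays, a call that was lost with the pairs averaged (adjusted p = 0.0633).

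Genes of respiration differed in sign between arrays. The 42 tested genes of the respiratory chain and ATP synthase had a median of 0.17, and 6 rose and 2 fell (3 rises and no fall with the pairs averaged). Over all genes 17.4% rose and 16.1% fell, and 7.71% and 7.73% did so with the pairs averaged. The share of rises in this list was thus no larger than that of all genes. Their median on single arrays was 0.76 on both arrays 4 and 5, but -0.51 and -0.57 on arrays 2 and 3. QCR8, a subunit of the cytochrome bc1 complex, ran from -0.46 to 3.05 with a median of 2.04. Arrays 2 and 3 were on the negative side and the other arrays on the positive side, and the change of 1.46 ± 0.44 lost its call with the pairs averaged (adjusted p = 0.0869). COX7, of cytochrome oxidase, went the same way (1.44 ± 0.48, and 0.104 with the pairs averaged). Without arrays 2 and 3 together, a choice made after seeing the data, 15 genes of this list rose and none fell. In that setting 2071 genes passed in all. COX4, another subunit of cytochrome oxidase, and ATP3, of ATP synthase, were the 2 that fell, by 0.72 and 0.58.

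The mitochondrial ribosome went the other way between arrays. Of its 73 tested proteins 22 rose, against 17.4% of all genes, and none fell, with a median of 0.32. The array medians were 0.97 and 1.02 on arrays 2 and 3, 0.11 to 0.45 on arrays 4 to 7, and -0.43 on array 1. With the pairs averaged 4 of the 73 rose, no larger a share than the 7.71% of all genes. Without arrays 2 and 3, 8 rose and 3 fell. MRPL28, a protein of the large mitochondrial subunit, was higher on all 7 arrays (0.82 to 1.74, median 1.42) and changed by 1.39 ± 0.14 (adjusted p = 0.000491, and 0.01 with the pairs averaged). MRPS16, of the small subunit, was likewise positive on every array (0.73 to 1.75). RSM10 ran from -0.17 to 1.89, and its call was lost with the pairs averaged (adjusted p = 0.114).

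The environmental stress genes, which rise together under heat, oxidants and starvation, gave 30 rises and 2 falls among 54 tested, with a median of 0.73, and 20 and 1 of these passed with the pairs averaged. The array medians were between 0.77 and 1.55 on arrays 1 and 4 to 7, and -0.10 and -0.09 on arrays 2 and 3. HSP12, a small membrane-bound heat shock protein, was positive everywhere (1.19 to 3.23, median 1.47) and changed by 1.92 ± 0.26. HSP30, a plasma membrane heat shock protein, changed by 2.07 ± 0.45, with 4.60 on array 1 and 0.13 at the lowest. CTT1, the cytosolic catalase, changed by 1.59 over a range from -0.12 to 2.58. HSP26, one of the most used stress reporters, ran from -1.92 to 2.53 and did not pass (-0.02, adjusted p = 0.975). The disaggregase gene HSP104 (0.47, adjusted p = 0.137) did not pass either. The 2 that fell were YGP1, a secreted glycoprotein made on nutrient limitation (-1.06), and the vacuolar peptidase gene APE1 (-0.85).

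Chaperone genes gave 9 rises and 2 falls among 21 (median 0.44), and 4 rises passed with the pairs averaged. FES1, a nucleotide exchange factor of the cytosolic Hsp70 proteins, ran from 1.23 to 2.95 and changed by 2.04 ± 0.24. HSP42, a small heat shock protein that gathers misfolded proteins, changed by 1.77 ± 0.33, and SIS1, an Hsp40 protein, by 1.11 ± 0.21. SSB2, a ribosome-bound Hsp70 that follows the ribosomal protein genes, was 1 of the 2 that fell (-0.62), beside the Hsp90 cochaperone gene AHA1 (-0.53). Of 13 stationary phase genes 8 rose and 1, YGP1, fell (median 0.69), with 6 and 1 passing with the pairs averaged. RIM15, the kinase that carries cells into quiescence, changed by 1.67 ± 0.19 and was positive on every array (1.07 to 2.90).

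**Figure D3:**
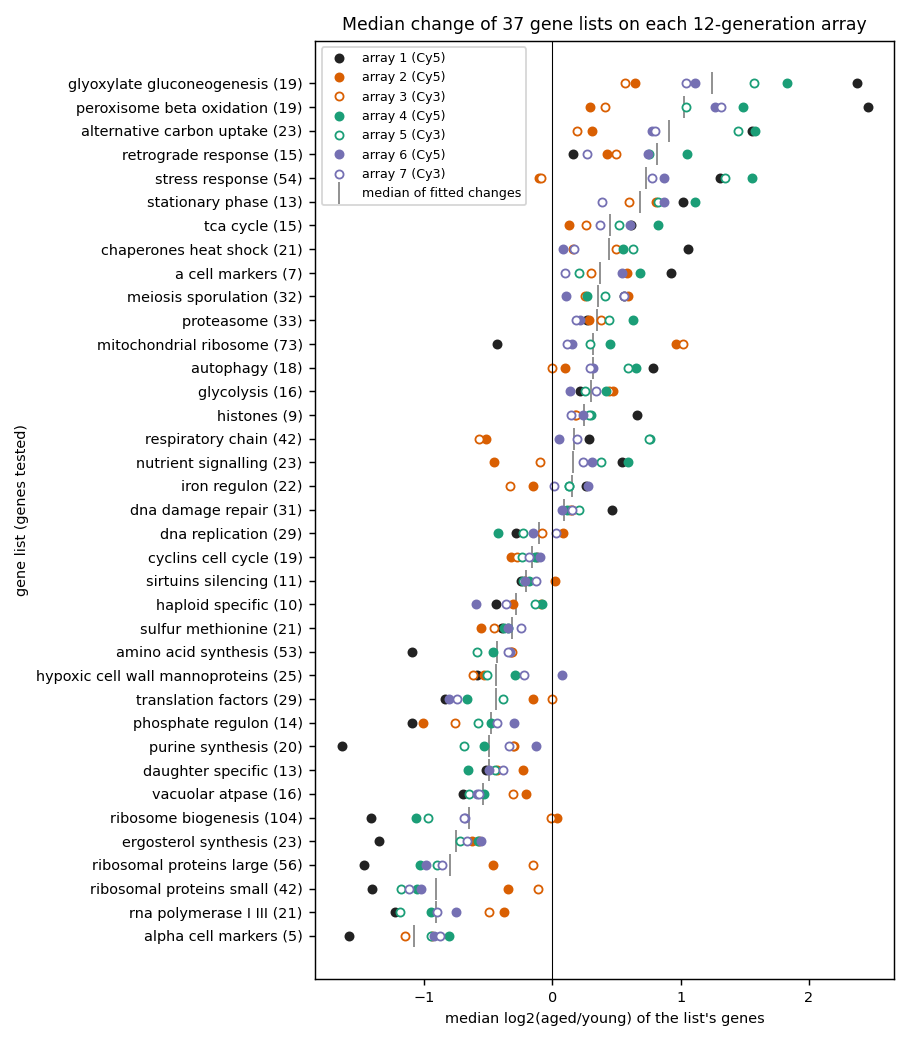
The median log2(aged/young) of the tested genes of each of 37 lists on each 12-generation array, with the median of the fitted changes as a grey bar and the number of genes tested in brackets. Ergosterol synthesis and RNA polymerases I and III lie below 0 on every array, while the stress, respiratory chain, ribosome biogenesis and mitochondrial ribosome lists have arrays 2 and 3 far from the rest.

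Ergosterol, the yeast sterol, is made by a long pathway that needs oxygen. Of its 23 tested genes 14 fell and none rose, with a median of -0.76, and 10 of the 14 passed with the pairs averaged. The array medians ran from -1.35 on array 1 to -0.56, all below 0. ERG1, the squalene epoxidase, ran from -1.89 to -0.95 and changed by -1.48 ± 0.14 (adjusted p = 0.000344). ERG5, a desaturase of the last steps, changed by -1.71 ± 0.22, and ERG24, a sterol reductase, by -1.43 ± 0.17. All 3 were lower on all 7 arrays.

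The wider list of genes made at low oxygen, with the mannoproteins expressed beside them, held 9 falls and 4 rises among 25 (median -0.44), of which 9 and 2 passed with the pairs averaged. ANB1, IZH4, CYB5, TIR1, DAN1 and IZH1 led the falls, and OLE1, the fatty acid desaturase, fell by 1.03. The 4 that rose were ROX1 (1.26), the repressor of hypoxic genes, PAU23 (1.23), PAU7 (0.82) and the sterol uptake regulator gene SUT1 (0.73). HEM13, a haem synthesis gene induced without oxygen, was at -0.37 and did not pass (adjusted p = 0.291). CYC7, the low-oxygen form of cytochrome c, was at 1.17 ± 0.47 (adjusted p = 0.0871), with -0.74 at the lowest and 3.14 at the highest.

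Ribosomal protein genes had negative medians on all 7 arrays, closest to 0 on arrays 2 and 3. Of 56 tested genes of the large subunit 38 fell and none rose (median -0.80), and of 42 of the small subunit 31 fell and none rose (median -0.91). With the pairs averaged 27 and 23 fell. The medians of the large subunit ran from -1.47 on array 1 through -1.04 to -0.86 on arrays 4 to 7, down to -0.46 and -0.15 on arrays 2 and 3. RPL2A ran from -2.14 to -0.38 and changed by -1.65 ± 0.22. RPS28B was an exception in its order, at -1.59 ± 0.15 with array 1 the least affected (-0.91). Most ribosomal proteins have near-identical paralogs, so a single copy's value may include its partner. Probes that list several genes, 20 of the large and 12 of the small subunit, were left out of these counts.

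The factors that assemble ribosomes gave 53 falls and no rise among 104 (median -0.65), and 30 of them passed with the pairs averaged. Arrays 2 and 3 had medians of 0.03 and -0.01 here, against -1.42 on array 1. Without them 69 fell. NOP1, the methyltransferase of ribosomal RNA, ran from -2.36 to -0.48 and changed by -1.79 ± 0.24. RRP5, needed for cutting the precursor RNA, ran from -2.41 to -0.28 and changed by -1.59 ± 0.29.

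RNA polymerases I and III, which make ribosomal and transfer RNA, were steadier. Of 21 tested subunits and factors 18 fell and none rose, with a median of -0.91, and 13 of these passed with the pairs averaged. All array medians lay between -1.22 and -0.38. RPA12, a small subunit of polymerase I, ran from -1.86 to -1.28 and changed by -1.63 ± 0.12 (adjusted p = 0.000175). Array 1 and the 3 pairs were nearly equal for it, at -1.67, -1.57, -1.72 and -1.51. The largest subunit, RPA190, fell by 1.47 ± 0.26 on the log2 scale and varied more (-2.24 to -0.38). Translation factors gave 14 falls and no rise among 29 (median -0.44; 11 falls with the pairs averaged), among them the elongation factor gene TEF4 (-1.44 ± 0.21) and GCD11 (-1.29 ± 0.21), a subunit of eIF2.

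In the lists for the synthesis of building blocks more genes fell than rose, and most members did not pass. Of 53 genes of amino acid synthesis 21 fell and none rose (median -0.44), 13 of them with the pairs averaged. The arginine genes ARG3 (-1.45 ± 0.20) and ARG1 (-1.45 ± 0.16) were lower on all 7 arrays. Sulfate assimilation and methionine gave 8 falls and no rise among 21 (median -0.31; 6 falls with the pairs averaged), with SAM2, an S-adenosylmethionine synthetase, at -1.71 ± 0.19. Purine genes gave 9 falls and 1 rise among 20 (median -0.49; 5 falls and no rise with the pairs averaged), and their median on array 1, -1.64, lay well below that on the other arrays. IMD2 and IMD3, for the first step towards guanine nucleotides, fell by 1.35 and 1.33. The 1 gene that rose was ADE3 (0.59), of folate metabolism.

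Phosphate uptake and storage gave 7 falls and 1 rise among 14 (median -0.48), and 6 and 1 of these passed with the pairs averaged. PHO84, the high-affinity phosphate transporter, was measured on 5 arrays with a median of -1.71 and a highest value of -1.58, and changed by -1.74 ± 0.16, and the polyphosphate synthesis gene VTC3 changed by -1.37 ± 0.14. PHM7, a membrane protein gene of this regulon, rose instead (1.95 ± 0.36). The proton pump of the vacuole, whose acidity is tied to amino acid storage and to mitochondrial function in aging mothers, gave 11 falls and no rise among 16 (median -0.54). Its array medians were below 0 on all 7 arrays, but single changes were small, from VMA3 at -0.99 ± 0.16 to VMA11 at -0.43, and 3 of the 11 passed with the pairs averaged. Iron genes gave 4 rises and 4 falls among 22, shares close to the 17.4% and 16.1% of all genes, and 1 and 3 passed with the pairs averaged. The oxidase gene FET3 (-1.27 ± 0.21) and its partner permease gene FTR1 (-1.24 ± 0.18) fell, and ISU1, a scaffold for iron-sulfur clusters, rose (1.22 ± 0.25).

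The lists of protein breakdown held rises and no fall. Over all genes 17.4% rose and 16.1% fell, and 7.71% and 7.73% did so with the pairs averaged. Of 33 proteasome genes 11 rose and none fell (median 0.35), and 4 of these passed with the pairs averaged. RPT4, an ATPase of the regulatory particle, was the most even, from 0.76 to 1.34 (0.96 ± 0.13). RPN4, the transcription factor of proteasome genes, changed by 1.48 ± 0.35 but ran from -0.14 to 2.62, with the pair of arrays 2 and 3 at -0.08. Autophagy gave 6 rises and no fall among 18 (median 0.31). With the pairs averaged 2 of the 18 rose, a share near that of all genes. The largest rise was that of ATG8, the protein coupled to autophagosome membranes (1.87 ± 0.32, from 0.45 to 2.85). Of 31 genes of the DNA damage response 8 rose and none fell, with a median of 0.09, against 17.4% and 16.1% of all genes. With the pairs averaged 3 rises passed, a share near the 7.71% of all genes. HUG1, a small protein induced by damage and replication stress, changed by 1.01 ± 0.13 and was positive on every array (0.56 to 1.25).

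Genes known from lifespan studies were followed in the lists of silencing and of nutrient signalling. Of 11 tested members of silencing and NAD metabolism none rose and 2 fell, a share near the 16.1% of all genes. They were the nucleolar anchor gene NET1 (-0.93 ± 0.12) and the replication fork barrier gene FOB1 (-0.38 ± 0.13). The FOB1 call was lost with the pairs averaged (adjusted p = 0.174). SIR2, the histone deacetylase that lengthens lifespan when added, was at -0.34 ± 0.13 and did not pass (adjusted p = 0.0719), with 0.12 on the highest array. PNC1, the nicotinamidase linked to calorie restriction, was at 0.52 ± 0.26 (adjusted p = 0.161). Among 23 genes of glucose and growth signalling 7 rose and 3 fell (median 0.16), and 4 and 1 of these passed with the pairs averaged. The shares over all genes were 17.4% and 16.1%, and 7.71% and 7.73% with the pairs averaged, so the falls were no more frequent here. The hexose transporter gene HXT2, used at low glucose, changed by 2.54 ± 0.39. HXT1, used at high glucose, rose as well (0.81 ± 0.21), and HXT4 did not pass (-0.38, adjusted p = 0.131). PDE1, which degrades cyclic AMP, changed by 1.54 ± 0.26. The 3 that fell were PDE2, which also degrades cyclic AMP (-1.01 ± 0.18), SCH9 (-0.63) and RAS1 (-0.59). MIG1, the glucose repressor, was at 1.03 ± 0.52 with -1.61 at the lowest and 2.37 at the highest, arrays 2 and 3 being negative and the others positive.

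Of 9 histone genes 3 rose and none fell, namely HTB1 (1.52 ± 0.23, on 5 arrays), the linker histone gene HHO1 (0.71 ± 0.14) and HTB2 (0.51 ± 0.14). The HTB2 call was lost with the pairs averaged (adjusted p = 0.0922). HTA1, HTA2, HHT1, HHT2, HTZ1 and CSE4 did not pass and lay between -0.48 and 0.27. Among 19 cyclins and cell cycle regulators 5 fell and none rose (median -0.16), and 3 falls passed with the pairs averaged. The shares of falls over all genes were 16.1% and 7.73%. The mitotic cyclin genes CLB1 (-1.37 ± 0.19) and CLB2 (-0.82 ± 0.14) were lower on all 7 arrays, as was FAR1, which arrests the cycle for mating (-1.36 ± 0.25). Replication genes gave 2 rises and 6 falls among 29 (no rise and 2 falls with the pairs averaged), the falls near the shares of 16.1% and 7.73% over all genes, with MCM6, a subunit of the replicative helicase, at -0.93 ± 0.19.

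Daughter cells and cells of other types were followed by their markers. Of 13 genes expressed mainly in newborn daughters, 8 fell and 3 rose (median -0.50), and 4 falls and 1 rise passed with the pairs averaged. Those that fell included the cell wall enzymes of separation. SUN4 changed by -1.75 ± 0.15, DSE4 by -1.51 ± 0.13, DSE2 by -1.24 ± 0.16 and SCW11 by -1.07 ± 0.16. All 4 were lower on all 7 arrays. ASH1, whose RNA is carried into the daughter, rose by 0.97 ± 0.16, as did NIS1 (0.79) and DSE3 (0.66), and the chitinase gene CTS1 was at 0.08. In RNA from a population, fewer daughter cells and less of such RNA per cell cannot be told apart. Array medians of this list ran from -0.66 to -0.23 at 12 generations, against -0.04 to 0.09 on the 1-generation arrays.

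Of the 5 markers of alpha cells 3 fell and none rose. The pheromone gene MF(ALPHA)1 changed by -1.63 ± 0.15 on 5 arrays, MF(ALPHA)2 by -1.18 ± 0.14, and the receptor gene STE3 by -1.08 ± 0.17. The agglutinin gene SAG1 (-0.53) and AFB1 (0.25) did not pass. Of the 7 markers of a cells 3 rose and none fell, namely the pheromone genes MFA1 (1.19 ± 0.15) and MFA2 (0.70 ± 0.13) and the agglutinin gene AGA2 (0.56 ± 0.12). The AGA2 call was lost with the pairs averaged (adjusted p = 0.0517). STE2, STE6, BAR1 and ASG7 lay between 0.15 and 0.37 and did not pass. Haploid genes gave 3 falls and no rise among 10, FAR1, HO and STE4, where 16.1% of all genes fell. The calls of HO and STE4 were lost with the pairs averaged (adjusted p = 0.233 and 0.0509). That left 1 of the 10, a share near the 7.73% of all genes. Meiosis genes gave 9 rises and no fall among 32 (median 0.36; 6 rises with the pairs averaged), led by IME1, the master regulator of meiosis, at 2.20 ± 0.50 and from -0.24 to 4.56 on single arrays. What part these cells had in the other changes was not tested.

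**Figure D4:**
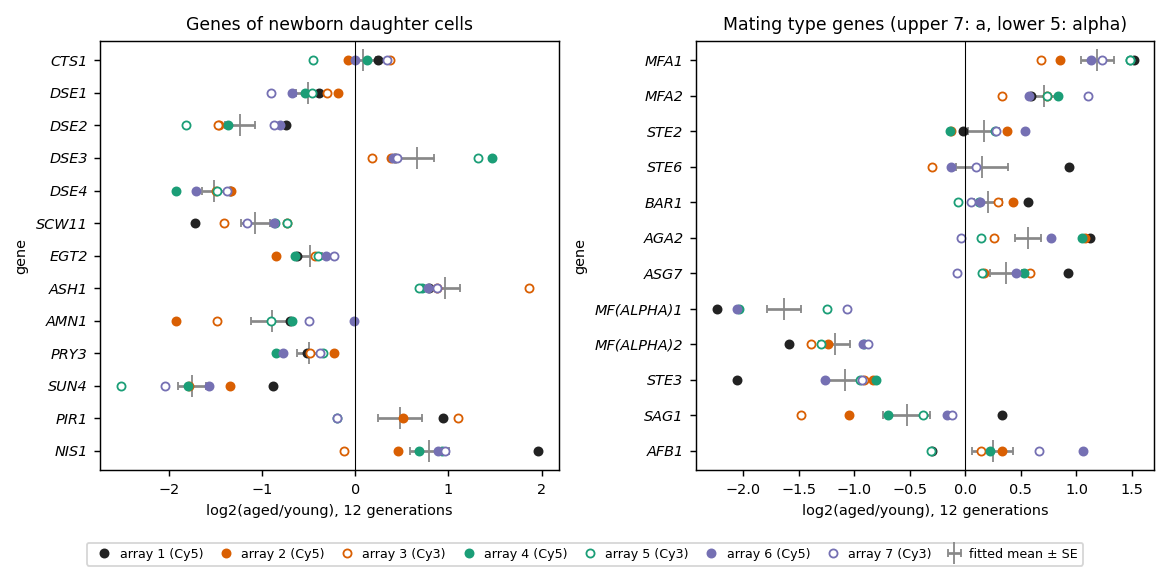
The log2(aged/young) of daughter genes (left) and of mating type genes (right) on each 12-generation array, filled for aged cells in Cy5 and open for Cy3, with the fitted mean and its standard error in grey. DSE4 and SUN4 are below 0 on every array, as are MF(ALPHA)2 and STE3, while MFA1 and MFA2 are above it.

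The 1-generation arrays showed how far ratios moved with young cells in both channels. The median size of a gene's log2 change there was 0.06, against 0.33 at 12 generations. The 1-generation means of ADH2, CYB5 and RPA12 were 0.03, -0.05 and 0.09. Of 5687 genes tested for the difference of 12 generations minus 1 generation, 2133 passed (37.5%), 1116 higher (19.6%) and 1017 lower (17.9%). With the 12-generation pairs averaged 2140 passed. This test took a common spread for both ages. The log2 ratios of an array had an SD of 0.17 to 0.24 at 1 generation and 0.60 to 0.98 at 12. The quieter young arrays therefore enter its error. Among the 1-generation arrays the dyes were turned on array 2 only.

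The comparison with 18-20 generations asks which changes were already in place at 12. Of 5826 genes tested, 541 (9.29%) differed between the ages, 200 higher (3.43%) and 341 lower (5.85%) at 18-20 generations. This count rested on single arrays and settings more than the others. It was 1072 without 12-generation array 1, 300 to 358 without 1 of 7 other arrays (2, 3, 6 and 7 at 12 generations and 1, 2 and 4 at 18-20), 23 with the pairs averaged, 6 higher (0.103%) and 17 lower (0.292%), and 44 with arrays scaled to each other, 15 higher (0.257%) and 29 lower (0.498%). In this comparison only the 12-generation pairs were averaged. The 7 arrays at 18-20 generations entered singly, and whether any of them share RNA was not examined. Of the 1965 genes called at 12 generations and tested here, 237 differed between the ages, in tests that share the 12-generation arrays. Of these 237, 215 were further from the young control at 18-20 and 22 were less changed or opposite.

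Ribosomal protein genes were among the genes that were lower at 18-20 than at 12 generations, 27 of 55 in the large subunit and 21 of 39 in the small subunit, against 5.85% of all genes. These counts were 5 and 4 with the pairs averaged, and 4 and 4 with arrays scaled to each other. The median difference was -1.12 and -1.23, against -0.02 over all genes. RPS29B, of the small subunit, had a median of 0.06 at 12 generations (-1.48 to 0.74) and lay between -3.55 and -1.37 at 18-20. RPS31, a ribosomal protein made as a fusion with ubiquitin, went from a median of 0.28 (-1.04 to 0.87) to values between -3.73 and -1.19. RPS29B and RPS31 were named for the size of this difference, so ranges that lie apart follow in part from that choice. The differences were -2.15 ± 0.32 and -2.07 ± 0.35 (adjusted p = 0.00227 and 0.00361). RPS4B (-2.21 ± 0.32) and RPL22A (-2.22 ± 0.33) behaved in the same direction, RPL22A having fallen at 12 generations already (-1.31 ± 0.22). TRM11, a methyltransferase subunit for transfer RNA, was at -0.58 ± 0.31 at 12 generations and did not pass (adjusted p = 0.191), and was lower by a further 2.39 ± 0.35 at 18-20. Of 104 assembly factors of the ribosome 35 were lower at 18-20 (1 with the pairs averaged), as were 5 of 21 genes of RNA polymerases I and III (none with the pairs averaged).

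The 5 genes with the largest differences in the other direction were PGM2, TFS1, DCS2, GPH1 and YGP1. PGM2, the phosphoglucomutase that feeds glycogen and trehalose synthesis, had a median of -0.64 at 12 generations (-0.95 to 0.65) and lay between 1.35 and 2.61 at 18-20. The level relative to the young control was 4.57-fold higher at the later age (2.19 ± 0.28, adjusted p = 0.00227). TFS1, an inhibitor of a vacuolar carboxypeptidase, was higher by 2.00 ± 0.30 and DCS2, a stress-induced regulator of messenger RNA decapping, by 1.81 ± 0.37. GPH1, the glycogen phosphorylase, was higher by 1.75 ± 0.41, and its ranges overlapped (-0.60 to 1.48 and 1.19 to 3.94). None of these 4 passed the test at 12 generations. YGP1 fell at 12 generations (-1.06 ± 0.17) and was higher by 1.75 ± 0.35 at 18-20, where its mean was 0.70. In all, 15 of 52 stress genes were higher at 18-20 than at 12 generations, against 3.43% of all genes, and none was lower. The count was 2 with the pairs averaged and 4 with arrays scaled to each other. Among the 10 genes named here PGM2, TFS1, TRM11, RPL22A, RPS4B and RPS29B passed with the pairs averaged, and DCS2, GPH1, YGP1 and RPS31 did not. RPL22A lost its call with arrays scaled to each other (adjusted p = 0.0712).

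**Figure D5:**
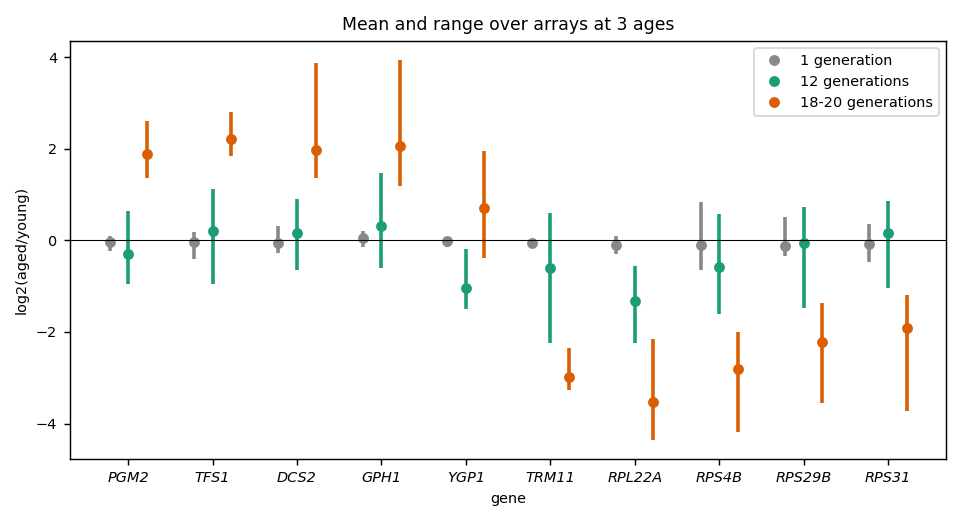
Mean log2(aged/young) (points) and range over arrays (bars) at 1, 12 and 18-20 generations for the 5 genes most above and the 5 most below their 12-generation level at 18-20. RPS29B and RPS31 lie around 0 at 12 generations and below -1 at 18-20, and YGP1 is below 0 at 12 generations on every array.

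For several of the largest changes at 12 generations the difference from 18-20 did not pass the test. ADH2 was at 3.67 at 12 generations with a difference of -0.89 ± 0.42 at 18-20 (adjusted p = 0.183), CYB5 differed by 0.17 ± 0.45 (adjusted p = 0.84) and ANB1 by 0.12 ± 0.33 (adjusted p = 0.846). The ergosterol list had 2 of 22 genes lower at 18-20 and none higher, and the glyoxylate and gluconeogenesis list 1 of 18 higher and none lower. Over all genes 5.85% were lower and 3.43% higher, so these lists did not stand out as less changed. A difference that did not pass does not show that the levels were equal.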

How the data were processed

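The deposited scanner files give, per the file headers, the median intensity and local background of 6580 spots in each colour, neither corrected nor normalized by the authors, and the percent of pixels above background plus 2 SD. The deposited table of the authors' log2 ratios served only as an alternative (r = 0.97 to 0.994 with the matching 12-generation array). For 1-generation arrays 3 and 4 (r = 0.373 and 0.421) and 8-generation arrays 1 and 3 (r = -0.581 and -0.571), each column correlated more strongly, in either sign, with the other array's scanner file than with its own, so scanner files and table disagree on which is which. The 8-generation arrays entered only the fits over all 27 arrays. The sources used here do not say how the authors normalized or centred it. Background was corrected by normexp (offset 50) and each array normalized by loess (span 0.3). Marked spots (174 to 1076 of an array) were left out, spots of a gene averaged, and genes measured on at least 4 of 7 arrays with both dye orientations tested. Median brightness on the 12-generation arrays ran from 292 to 2559 in red and 466 to 2740 in green, and the number of arrays limits the precision (median standard error 0.17 on the log2 scale). The mean log2 ratio, with dye as a covariate, was tested against 0 with limma 3.58.1 in R 4.3.3 (two-sided, adjusted over all genes). Of 6388 systematic names, 5849 were matched to RefSeq for symbols. Lists were counted without a test, and a gene may be counted in more than 1 list. Named genes had their own probe, at least 6 arrays, an adjusted p under 0.05 and 1 sign on every array (the 15 largest rises and falls). To these were added members of the lists described and 5 of each sign of the difference from 18-20 generations. The members and lists were chosen with earlier results of these data known. Replicate numbers did not pair arrays of different ages. The scripts were tested on simulated data.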

Additional observations from a re-analysis of the deposited data

Results flagged for a closer look

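On 12 genes and 5 list medians, 1 array of the 7 lay far from the rest. Chance alone sets such a mark on about 1 group in 20, and 224 were tested. Array 1 was the one apart for CIT3 (4.46, the nearest other array at 2.73), STE3 (-2.05, nearest -1.26), HO (0.487, nearest -0.611), DIT1 (3.13, nearest 1.93), DMC1 (2.73, nearest 1.34) and RPS29B (-1.48). It also stood apart in the list medians of ergosterol synthesis (-1.35), amino acid synthesis (-1.09), purine synthesis (-1.64), DNA damage and repair (0.465) and histones (0.66). Array 3 stood apart for ADY2 (1.36, nearest 4.34), TIR1 (-3.11) and STE5 (-0.214), array 2 for RPL27B (-0.303), array 5 for VTC3 (-1.97) and array 7 for PDH1 (0.0693).

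For 30 of the 187 named genes the 18-20-generation arrays differed from the 12-generation arrays in the limma test of the difference. Over all genes tested, 9.29% passed it. The 5 largest differences of each sign were named for passing this same test, so they are among the 30 by choice. Of the 30, 6 still passed with the 12-generation pairs averaged, 9 with arrays scaled to each other and 18 with the replicate number as a block. All 6 come from the genes named for this difference. The differences in log2 (18-20 minus 12) of genes for ribosomes and growth were -1.55 for AAH1, -1.43 for RPL16A, -0.961 for UTP20, -1.08 for RRP5, -0.704 for RPA12, -1.3 for RPA135, -1.05 for TEF4, -2.39 for TRM11, -2.22 for RPL22A, -2.21 for RPS4B, -2.15 for RPS29B and -2.07 for RPS31. Genes of metabolism gave -1.81 for PDC1, which rose at 12 generations and had a mean of -0.78 at 18-20, -0.802 for VMA8, -1.21 for SAM2, -1.53 for SAM1 and -1.25 for APT1. Daughter and mating type genes gave -0.641 for DSE4, -1.05 for DSE2, -1.35 for MF(ALPHA)2, -0.692 for STE3 and -0.78 for AFB1. The genes that were higher at 18-20 were HXK1 (1.32), ATG19 (1.28), PNC1 (1.3), PGM2 (2.19), TFS1 (2), DCS2 (1.81), GPH1 (1.75) and YGP1 (1.75).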

How the results depend on the processing

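The count of 1991 genes changed at 12 generations stood within 1.5 times under other background correction, normalization within arrays, scaling, dye, missing-spot and brightness settings, the authors' table and array weights (1776 to 2708). It was 681 with arrays 4 and 5 and arrays 6 and 7 averaged, 1131 with these as random blocks, 919 with all 3 pairs averaged and 1139 with them as random blocks, the last 2 chosen after seeing the data, as was leaving out arrays 2 and 3 together (2071). Leaving out 1 array gave 1154 to 2034, lowest without array 5 and without array 7 (1154 each). Called genes kept their sign wherever a setting measured them (1830 of 1991 with every array required, 1866 with bright probes, 1960 in the authors' table), except 2 with median centring and 1 in the authors' table. The difference from 1 generation (2133) was 1118 with arrays scaled to each other and 1608 to 2387 with 1 array left out. The difference from 18-20 generations (541) was 332 with median centring, 44 with scaling, 2172 with array weights, 293 with arrays 4 and 5 and 6 and 7 averaged, 1156 with all 27 arrays in the fit and 23 with all 3 pairs averaged, and 300 to 1072 with 1 array left out (1072 without 12-generation array 1, 300 without 18-20-generation array 2). With the replicate number as a block the 3 counts were 2554 (all 27 arrays), 1586 and 218. The labels do not say that numbers pair arrays of different ages, and same-numbered arrays correlated at -0.279 to 0.221. Of the 37 list medians, glycolysis was -0.25 with median centring and silencing 0.13 in the authors' table, both opposite to the value reported, and sulfate and methionine ran from -0.66 (bright probes) to -0.17 (without arrays 2 and 3). The cause of these shifts was not tested. Among named genes 17 calls were lost with all 3 pairs averaged and 38 with arrays 4 and 5 and 6 and 7 averaged. A scan date as a block was not run, since the files carry none. A channel above background on 4 or fewer arrays limits ADY2, CIT3, PHM7, CLB2, DAN1 and SFC1 among others.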

Other observations

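Genes for spore formation were among the rises that no result above describes singly. DIT1, which makes a precursor of the spore wall, changed by 1.63 ± 0.20 and was higher on all 7 arrays (1.16 to 3.13). The meiotic recombinase gene DMC1 changed by 1.30 ± 0.22 (0.76 to 2.73) and SPO20, of the spore membrane, by 1.23 ± 0.19 (0.84 to 2.44). Each of the 3 was highest on array 1. In the nutrient signalling list MTH1, a repressor of hexose transporter genes, changed by 1.42 ± 0.27 (0.24 to 2.44). In the DNA damage list, RAD10 (0.73 ± 0.16), RAD4 (0.65 ± 0.19) and RAD2 (0.56 ± 0.15) were among the 8 of 31 genes that rose, and the RAD2 call was lost with the pairs averaged (adjusted p = 0.0729).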
